A study of Mus musculus with 7 samples.

Results

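The genes described here are 37 named members of the cellular response to low oxygen and of glycolysis, of which 15 are glycolytic enzymes (hexokinase to lactate dehydrogenase) and 22 are other hypoxia-induced genes. Members were chosen by symbol and found by NCBI gene number among the 24990 features of the deposited tables, single-gene rows only. A row was found for 36 of the 37, 14 enzymes and all 22 others, and Eno1 had no such row. The samples were 7 libraries of embryoid bodies, aggregates formed by differentiating embryonic stem cells, grown from the mouse line R1 and collected on day 4. Polyadenylated RNA was read from its 3′ end with the QuantSeq kit. By title, WT1 and WT2 came from wild-type cells, pKO1 and pKO2 from cells without the promoter of Meteor (a long non-coding RNA gene near the T-box factor gene Eomes), pInv from cells with that promoter inverted, Ctrl from empty-vector cells and KD from a CRISPR knockdown of Meteor, which the labels describe with Cas9 in the design text and dCas9 in the sample field. All groups share the line and the hanging-drop culture started from 500 cells in 27 µl, after removal of feeder fibroblasts. The labels do not say whether a genotype is 1 clone or whether a group's libraries are separate cultures, and p-values therefore describe the spread between these libraries alone. The genotype field contradicts the title in 5 of the 7 libraries, where WT1 and WT2 are entered as promoter knockout, pKO1 as the inversion, and pKO2 and pInv as wild type. Every direction below follows the titles and depends on them.

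Cells sense oxygen through prolyl hydroxylases (the Egln genes) that mark hypoxia-inducible factor, HIF, for destruction by the Vhl ubiquitin ligase. When oxygen is short, HIF accumulates, pairs with Arnt, and binds the core letters ACGTG or GCGTG in the control regions of its targets. Those targets raise glucose uptake and glycolysis, limit the use of pyruvate in the mitochondrion, trim mitochondria and promote vessel growth. Pluripotent cells and early embryonic tissue are known for a high rate of glycolysis, and the interior of an embryoid body can receive less oxygen than its surface.

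The promoters of members with the most copies of these core letters are shown because HIF binds at such letters. Sequences are RefSeq's on GRCm38.p6, a later build than the mm9 of the counts, and run from 250 bases before to 50 bases after an annotated start, 5′ to 3′ on the gene's strand. Capitals mark ACGTG and GCGTG on either strand (CACGT and CACGC in the printed direction), and a CACGTG is counted on both strands. The 3 enzyme promoters are those of Ldha (chr7:46845554-46845853, plus strand, 7 matches), Hk1 (chr10:62340372-62340671, minus strand, 5 matches) and Pfkp (chr13:6648722-6649021, minus strand, 4 matches).

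Ldha: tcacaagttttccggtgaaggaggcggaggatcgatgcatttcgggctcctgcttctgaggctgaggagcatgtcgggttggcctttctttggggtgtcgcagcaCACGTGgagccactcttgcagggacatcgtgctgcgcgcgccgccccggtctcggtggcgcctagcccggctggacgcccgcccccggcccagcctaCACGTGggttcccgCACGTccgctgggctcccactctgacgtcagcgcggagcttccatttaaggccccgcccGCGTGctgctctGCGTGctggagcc

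Hk1: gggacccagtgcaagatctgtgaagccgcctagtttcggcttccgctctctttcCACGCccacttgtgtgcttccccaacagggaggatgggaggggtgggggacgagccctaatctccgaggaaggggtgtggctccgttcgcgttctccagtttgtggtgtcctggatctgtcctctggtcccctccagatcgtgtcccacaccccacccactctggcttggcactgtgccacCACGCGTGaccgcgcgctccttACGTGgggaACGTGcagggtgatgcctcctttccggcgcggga

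Pfkp: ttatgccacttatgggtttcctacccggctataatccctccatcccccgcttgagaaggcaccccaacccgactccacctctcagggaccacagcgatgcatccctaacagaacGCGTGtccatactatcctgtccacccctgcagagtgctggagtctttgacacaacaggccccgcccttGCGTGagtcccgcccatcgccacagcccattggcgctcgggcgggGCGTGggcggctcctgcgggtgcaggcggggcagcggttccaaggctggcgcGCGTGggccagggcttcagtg

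Of the other hypoxia-induced genes, Bnip3 had the most matches, and Ankrd37, P4ha2 and Pfkfb3 tied for the next place with 4 each; the tie was broken by alphabet, which leaves out Pfkfb3. Shown are Bnip3 (chr7:138909457-138909756, minus strand, 5 matches), Ankrd37 (chr8:45999801-46000100, minus strand, 4 matches) and P4ha2 (chr11:54100674-54100973, plus strand, 4 matches).

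Bnip3: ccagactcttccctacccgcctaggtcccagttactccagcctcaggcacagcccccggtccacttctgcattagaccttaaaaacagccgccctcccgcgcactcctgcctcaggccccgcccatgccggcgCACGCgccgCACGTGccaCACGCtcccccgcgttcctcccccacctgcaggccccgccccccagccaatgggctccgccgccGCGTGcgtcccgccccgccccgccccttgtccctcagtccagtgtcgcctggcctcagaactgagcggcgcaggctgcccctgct

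Ankrd37: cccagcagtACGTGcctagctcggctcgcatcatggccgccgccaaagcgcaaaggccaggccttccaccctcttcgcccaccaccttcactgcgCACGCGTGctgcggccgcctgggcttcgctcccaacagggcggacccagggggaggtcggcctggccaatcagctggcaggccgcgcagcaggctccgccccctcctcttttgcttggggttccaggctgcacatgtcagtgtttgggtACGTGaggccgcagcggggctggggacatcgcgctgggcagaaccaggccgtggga

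P4ha2: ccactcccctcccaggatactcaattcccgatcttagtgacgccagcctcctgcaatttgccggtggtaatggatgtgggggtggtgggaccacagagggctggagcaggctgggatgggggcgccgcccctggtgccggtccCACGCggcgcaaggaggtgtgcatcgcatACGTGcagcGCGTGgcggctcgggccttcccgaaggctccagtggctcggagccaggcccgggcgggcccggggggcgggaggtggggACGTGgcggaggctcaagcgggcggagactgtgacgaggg

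A promoter was in the table for 34 of the 37 members, those without being Ndrg1, Slc2a3 and Bnip3l. Taking for each gene its promoter with most matches, 13 of 15 enzymes and 19 of 19 other members held at least 1 match, against 46.7% of all 27025 genes in the table and 68.6% of the 8062 of them that were tested for expression here. By single promoter rather than by gene, 43.8% of all 32851 windows held a match. For ACGTG alone the shares were 66.7% of enzymes and 78.9% of the others, against 21.3% of all genes and 28.9% of tested genes. Median GC content was 62.3% in the enzymes, 66% in the others and 61.7% in tested genes. Gpi1 and Tpi1 held no match, Egln3 held 1, and Pfkm held 3, all of them ACGTG. The members were listed as genes of the hypoxia response and of glycolysis, so their share of these letters is not independent of that choice. The 15 enzymes include Eno1, and the 19 others include Adm, Ankrd37, Car9 and Pfkfb4, none of which was tested for expression. A match describes the letters of this window and not binding.

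Library totals were lowest in WT2 (1898350 expected counts) and highest in WT1 (2564478), and the 45S ribosomal RNA precursor took 12.9% (pInv) to 24.1% (WT2) of them. Levels are in CPM, which divides each count by the TMM-scaled library size, and a count of 0 allows up to 1.12 CPM in WT1 and 1.80 CPM in WT2, for counting error only. The stem cell and epiblast marker set, all 8 of 8 detected, summed to 2754 CPM in KD and 3385 to 3622 CPM elsewhere, and the primitive streak set to 516 CPM in WT2 and 1212 to 2611 CPM elsewhere. The 10 feeder fibroblast markers summed to 3.05 to 8.77 CPM, with Fap at 0 in every library. In bulk RNA, fewer cells of a type and less RNA per cell cannot be told apart.

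Both member groups stood higher in the libraries titled WT than in pKO. Of the 14 tested enzymes, 12 were lower in pKO, with a median log2 difference of −0.33, and of 18 tested hypoxia-induced genes 17 were lower, with a median of −0.51. Over all 10265 genes tested, 50.1% were lower and the median was 0.00. With Benjamini-Hochberg correction of edgeR's quasi-likelihood p-values, no member passed an adjusted p of 0.05, and 0% of all genes did. At an unadjusted p under 0.05 there were 3 enzymes and 1 other member, where 1.03% of all genes fell. Tests by limma-voom, by DESeq2 and by limma on TPM values also called 0 genes. The enzymes' median depended on single libraries, at −0.09 without WT2, −0.18 without pKO1 and −0.58 without pKO2, and that of the hypoxia-induced genes was −0.24 without WT1 (12 of 18 lower). With groups taken from the genotype field in place of the titles, both medians turned positive, at 0.20 and 0.47. Markers of other cells moved with this comparison, with 8 of 8 primitive streak genes and 6 of 6 definitive endoderm genes higher in pKO. Their medians were 0.47 and 0.58 with none called. The gene Gsc belongs to both sets, here and below, so their counts and sums are not separate. WT2 was the low library, as the primitive streak sum was 1730 CPM in WT1 and 516 in WT2, against 1464 and 2098 in pKO. The definitive endoderm sum was 456 and 111 CPM in WT, against 316 and 395 in pKO. The part of these markers in the result was not tested.

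Most members were also lower in pInv and in Ctrl than in WT. For pInv against WT the medians were −0.42 for enzymes (11 of 14 lower) and −0.55 for hypoxia-induced genes (18 of 18 lower), where 50.8% of all genes were lower. For Ctrl against WT they were −0.38 (13 of 14 lower) and −0.63 (15 of 18 lower), where 52.2% of all genes were lower and their median was −0.03. These 3 comparisons share the WT libraries, so they are not separate evidence. Marker sets of other cells differed here too. In Ctrl against WT, 8 of 8 primitive streak genes and 6 of 6 definitive endoderm genes were higher, at medians of 0.54 and 0.44. Their sums in Ctrl, 1636 and 358 CPM, lay between those of WT1 (1730 and 456) and WT2 (516 and 111). In pInv against WT, 5 of 6 definitive endoderm genes were lower, at a median of −0.41. None was called, and their part was not tested. Between pInv and pKO, which share no library, the medians were 0.08 (6 of 14 lower) and −0.10 (11 of 18 lower), where 49.9% of all genes were lower, and without pKO2 they were 0.21 and −0.06. All 6 of 6 definitive endoderm genes were lower in pInv than in pKO, at a median of −0.94 with none called, and their part was not tested. No gene was called by adjusted p for pInv against WT, for Ctrl against WT or for pInv against pKO (0% in each by edgeR with the same correction, and 0 as well by limma-voom, by DESeq2 and by limma on TPM values). Without WT2 the enzymes' median was −0.13 in pInv (7 of 14 lower) and −0.21 in Ctrl, both relative to WT, and without WT1 12 of 18 hypoxia-induced genes were lower in pInv.

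The 2 WT libraries were raised in different members. Relative to the mean of the 7 libraries on the log2(CPM + 1) scale, the median enzyme stood at 0.10 in WT1 and 0.37 in WT2, and between −0.22 (pKO1) and 0.07 (pInv) in the other 5. The median hypoxia-induced gene stood at 0.41 in WT1 and 0.21 in WT2, and between −0.20 (Ctrl) and −0.06 (KD) in the others. WT2 was the highest library for 8 of 14 enzymes, while for the 18 hypoxia-induced genes WT1 was highest for 8 and WT2 for 6, with WT2 also the lowest for 5. Summed over the 14 enzyme rows, the level was 6481 and 7106 CPM in WT, while pKO held 4859 and 5955, pInv 5903, Ctrl 5558 and KD 5109. The 22 other members summed to 1594 and 1846 CPM in WT and 1095 (pInv) to 1213 (pKO2) elsewhere. The WT libraries thus held the highest sums of both groups. Such sums follow the most abundant genes. In WT2, Slc16a3 held 729 CPM and Higd1a 604, while the next of the 22, Bnip3l, held 70.8.

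**Figure D1:**
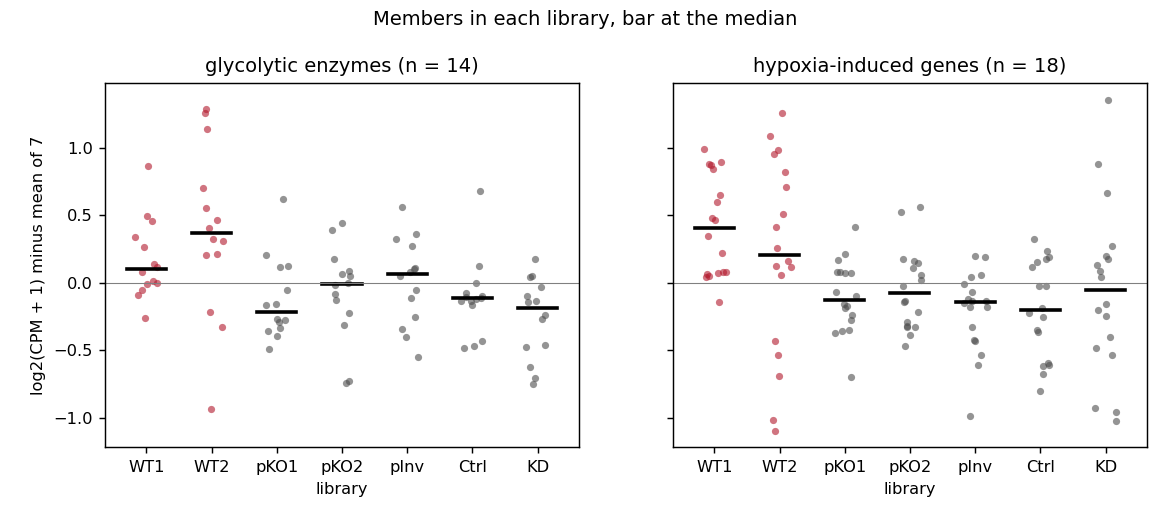
Each point is a tested member, plotted as log2(CPM + 1) minus its mean over the 7 libraries (vertical axis) for each library (horizontal axis), with a bar at the median; 14 glycolytic enzymes on the left, 18 hypoxia-induced genes on the right, WT libraries in red. The median enzyme is highest in WT2 (0.37) and the median hypoxia-induced gene in WT1 (0.41).

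Of 32 tested members, 4 had both WT libraries above all other 5, namely Hk1 among 14 enzymes and Egln1, Egln3 and Pfkfb3 among 18 hypoxia-induced genes. Over all genes tested, 3.99% showed this order. No member had both WT libraries below the other 5, an order shown by 3.76% of genes. The count of 4 depended on scaling and on single libraries: it was 7 with library size alone, 7 on TPM values, 9 without pKO2, and, with a single WT library left to compare, 23 without WT1 and 13 without WT2. For the remaining 28 members the ranges overlapped.

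Both oxygen sensors among the members stood higher in WT. Egln3, a prolyl hydroxylase that HIF itself induces, held 30.7 and 39.0 CPM in WT against 11.5 and 16.4 in pKO, with pInv at 17.4, Ctrl at 12.2 and KD at 19.9. The lowest WT library lay above the highest of the others. Mean levels were 34.9 ± 5.85 CPM (SD, n = 2) for WT and 13.9 ± 3.50 CPM (SD, n = 2) for pKO, a log2 difference of −1.26 (SE 0.37). By edgeR its adjusted p was 1, from an unadjusted p of 0.00795 in the same edgeR fit. Against WT, Egln3 differed by −0.96 (SE 0.46) in pInv and −1.45 (SE 0.49) in Ctrl on the log2 scale.

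Egln1, the main oxygen sensor of most cells, had 28.1 and 24.0 CPM in WT against 16.7 and 18.1 in pKO, with pInv at 20.8, Ctrl at 12.7 and KD at 22.6. KD came close to WT2, so the separation is narrow. The log2 difference was −0.56 (SE 0.34) for pKO and −0.99 (SE 0.45) for Ctrl, both against WT. Egln1 took 38.1% (WT2) to 59.3% (pKO1) of the joint counts of both sensors, and the exact 95% Clopper-Pearson intervals of those shares, 28.8% to 48.1% and 45.7% to 71.9%, overlapped.

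The factor these enzymes act on was steady at the RNA level. Hif1a ranged from 54.0 CPM in KD to 60.7 in pKO1, with 60.3 and 58.8 CPM in WT, and its partner Arnt from 2.77 to 4.92 CPM. Epas1, which encodes HIF-2α, reached at most 2.46 CPM (pKO2) and was not tested. Egln2, the remaining prolyl hydroxylase, had 77.6 CPM in KD and 105 in pInv at its extremes. Vhl had 16.1 and 12.6 CPM in WT against 5.25 and 6.57 in pKO, with pInv at 11.5, Ctrl at 9.14 and KD at 8.77. Both WT libraries lay above the other 5 for Vhl, at a log2 difference of −1.17 (SE 0.44) for pKO against WT and an edgeR adjusted p of 1. Of 15 tested HIF pathway components, 6 were lower in pKO than in WT and none was called.

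**Figure D2:**
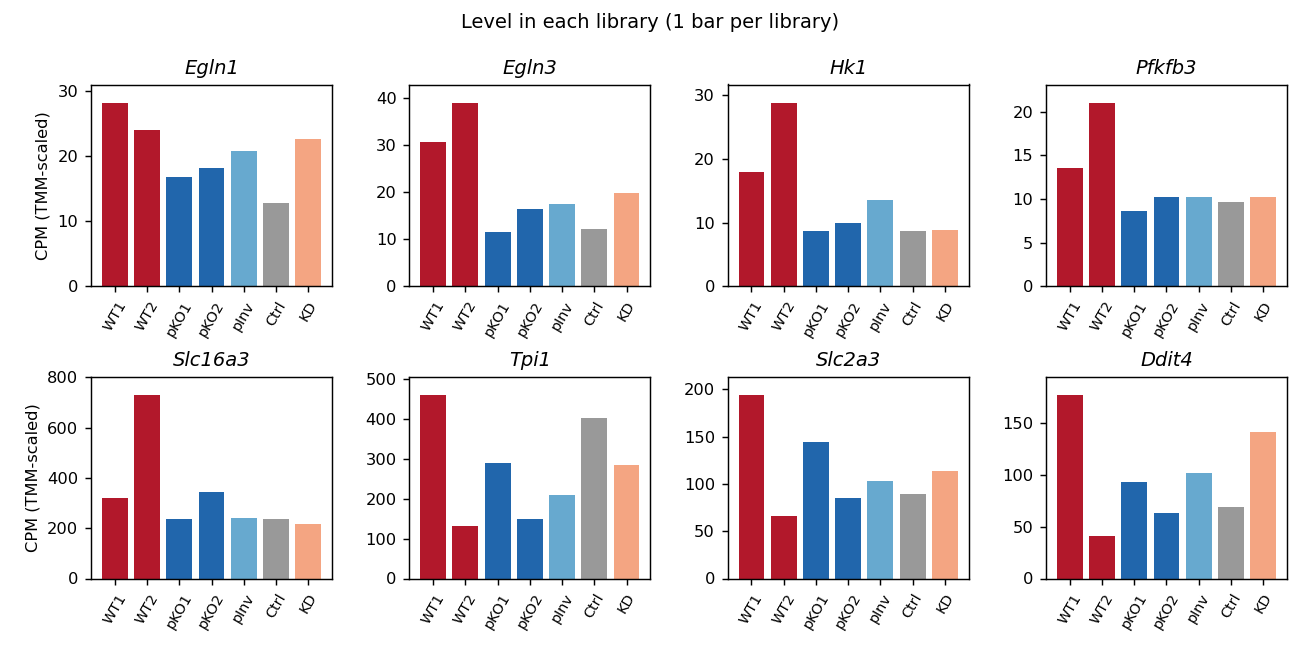
Bars give the level (vertical axis, TMM-scaled CPM from 0) of 8 members in each library (horizontal axis), with WT in red, pKO in dark blue, pInv in light blue, Ctrl in grey and KD in orange. Egln1, Egln3, Hk1 and Pfkfb3 have both WT bars above the other 5, Slc16a3 is highest in WT2 alone (729 CPM), and Tpi1, Slc2a3 and Ddit4 are highest in WT1 and lowest in WT2.

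Of the upper glycolytic steps, hexokinase 1 parted the libraries and hexokinase 2 did not. Hk1 had 17.99 and 28.8 CPM in WT against 8.60 and 9.85 in pKO, with pInv at 13.6, Ctrl at 8.63 and KD at 8.77. The log2 difference for pKO against WT was −1.25 (SE 0.41), and edgeR's adjusted p was 1. Hk2, one of the genes that HIF is known to induce, had 194 and 154 CPM in WT against 195 and 164 in pKO. It was at 230 in pInv, 160 in Ctrl and 167 in KD. WT1 lay inside the range of the other titles and WT2 below it. Hk1 therefore took 8.48% of the joint hexokinase counts in WT1 (exact 95% interval 6.32% to 11.1%) and 15.8% in WT2 (11.9% to 20.4%). In the other 5 libraries it took 4.23% to 5.66%, with upper bounds from 6.60% (pKO1) to 8.31% (pKO2). The interval of WT1 thus overlapped theirs, and that of WT2 did not.

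Gpi1, which isomerises glucose 6-phosphate, was at 441 CPM in WT2 and between 224 (pKO1) and 279 (pKO2) elsewhere, WT1 included at 253. Phosphofructokinase, the committed step, has 3 subunit genes that behaved differently. Pfkp was at 44.4 CPM in WT2 and 19.1 in WT1, and 10.6 (KD) to 19.6 (pKO1) in the others. Pfkl ran from 31.0 in pInv to 56.6 in pKO2, with WT at 41.2 and 55.2. Pfkm had 10.1 and 14.4 CPM in WT against 19.6 and 12.3 in pKO, with pInv at 15.7 and Ctrl at 11.2. KD was lowest at 6.93, and WT overlapped the others. The share of Pfkp among the 3 was 38.9% in WT2 (interval 31.97% to 46.3%) and 17.7% to 27.5% elsewhere. That interval overlapped those of WT1 (20.9% to 34.1%) and pKO1 (20.5% to 35.4%).

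The aldolases were highest in WT2 as well. Aldoc, the brain-type aldolase, had 40.1 and 82.8 CPM in WT against 32.01 and 19.7 in pKO, with pInv at 40.3, Ctrl at 24.4 and KD at 21.2. WT1 and pInv were level, so the groups overlapped. The log2 difference for pKO against WT was −1.22 (SE 0.45), or −0.60 without WT2, and edgeR's adjusted p was 1. Aldoa, the widely expressed aldolase, was at 443 and 556 CPM in WT and 329 (pKO1) to 455 (pKO2) elsewhere.

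In the later steps of the pathway the order of the libraries differed from enzyme to enzyme. Gapdh stood at 1562 and 1528 CPM in WT against 936 and 1055 in pKO, with pInv at 1827, Ctrl at 1140 and KD at 886. The inverted-promoter library was thus above both WT libraries and pKO below them, with a log2 difference of −0.63 (SE 0.25) for pKO against WT. From pKO to pInv the log2 difference was 0.88 (SE 0.30), and edgeR's adjusted p was 1 for both. Pgam1 ranged from 835 (pKO1) to 1088 CPM (WT2), Pkm, which makes pyruvate, from 280 (pKO1) to 442 (WT2), and Pgk1 from 404 (WT2) to 698 (WT1). Ldha, which turns pyruvate into lactate, was at 1469 and 2137 CPM in WT against 1204 and 1913 in pKO, with pInv at 993, Ctrl at 1354 and KD at 1421, so pInv was lowest and the libraries numbered 2 were highest. In pInv its log2 difference was −0.86 (SE 0.42) from WT, or −0.57 without WT2, and −0.65 (SE 0.42) from pKO, or −0.28 without pKO2.

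Tpi1, the triose phosphate isomerase, divided the libraries by number. It held 460.3 and 131 CPM in WT against 289.5 and 149.8 in pKO, with pInv at 210.5, Ctrl at 404 and KD at 284. Both libraries numbered 2 were below every other library. Expected counts lay more than 0.005 from a whole number in at least 1 library for 15 of the 36 members, among them Tpi1, Gapdh, Ldha, Gpi1, Pgam1 and Slc2a3. RSEM gives such values where reads fit more than 1 feature, so these levels are uncertain to that extent.

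**Figure D3:**
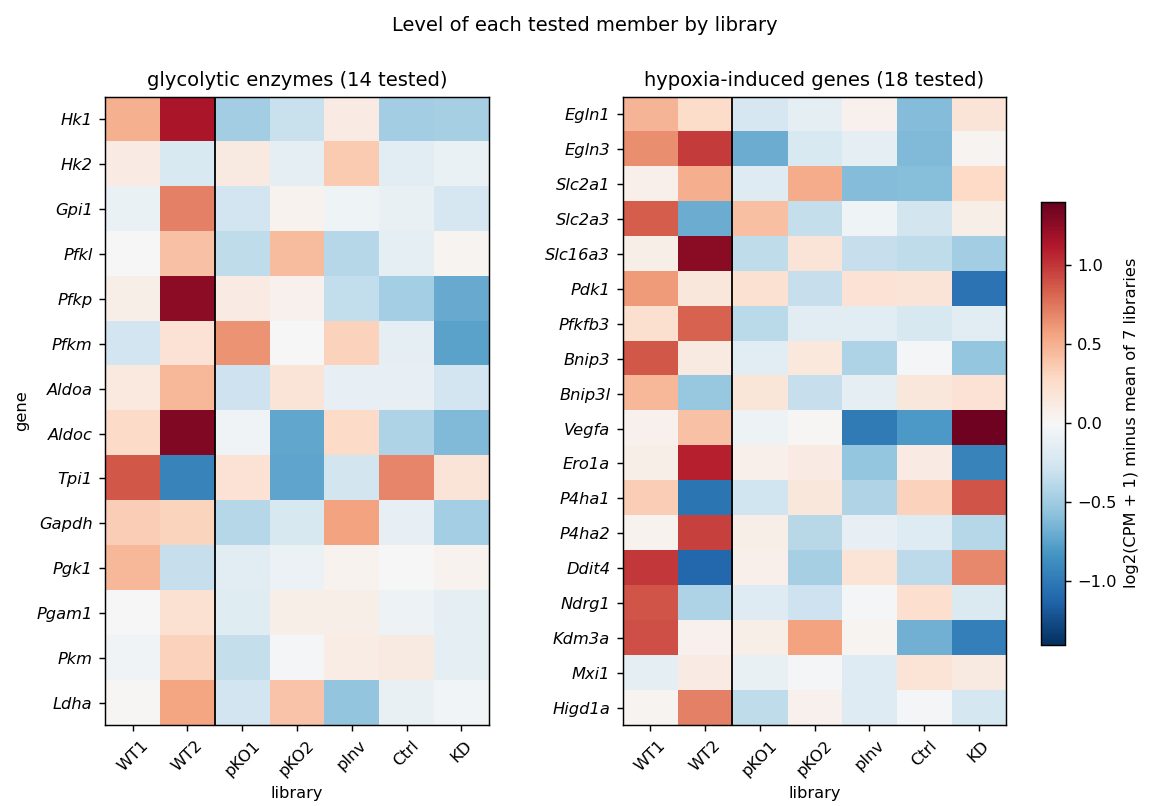
Colour gives log2(CPM + 1) minus the mean of the 7 libraries for each tested member (rows) in each library (columns), glycolytic enzymes on the left and hypoxia-induced genes on the right, with a line after the WT libraries. Hk1, Pfkp and Aldoc are highest in WT2, Tpi1 and Ddit4 are high in WT1 and low in WT2, and Vegfa is high in KD.

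Among transporters, Slc16a3, which exports lactate, had 321 CPM in WT1 and 729 in WT2, 237 and 343 in pKO, 241 in pInv, 238 in Ctrl and 216 in KD. WT1 lay below pKO2, so the groups overlapped. Its log2 difference for pKO against WT was −0.85 (SE 0.41), and it was −0.12 without WT2 and −1.33 without WT1. The glucose carriers differed between libraries 1 and 2 of both titles. Slc2a3 had 194 and 66.0 CPM in WT against 144 and 85.3 in pKO, with pInv at 103, Ctrl at 89.9 and KD at 114. Slc2a1 had 18.4 and 25.2 CPM in WT against 15.3 and 25.4 in pKO, with pInv at 11.03, Ctrl at 11.2 and KD at 21.2. Slc2a1 thus took 27.6% (interval 20.7% to 35.5%) of their joint counts in WT2 and 23.0% (18.1% to 28.4%) in pKO2, against 8.66% to 15.7% in the rest. The interval of pKO2 overlapped that of KD (11.7% to 20.4%).

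Of the regulators of flux, Pfkfb3, whose product activates phosphofructokinase, had 13.5 and 21.0 CPM in WT against 8.60 and 10.3 in pKO, with pInv at 10.2, Ctrl at 9.65 and KD at 10.2. Both WT libraries stood above the other 5, at a log2 difference of −0.79 (SE 0.42) for pKO against WT, or −0.46 without WT2. Pdk1, a kinase that limits the use of pyruvate in the mitochondrion, had 66.3 and 48.6 CPM in WT against 50.6 and 34.5 in pKO. It was at 50.1 in pInv, 49.2 in Ctrl and 20.8 in KD. WT2 fell among the others and KD was lowest. Pfkfb4 reached no more than 1.64 CPM and did not pass the filter.

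The mitochondrial members were highest in a WT library, though not the same library. Bnip3, a receptor for removal of mitochondria, had 80.2 and 47.4 CPM in WT against 38.7 and 48.0 in pKO, with pInv at 31.8, Ctrl at 42.6 and KD at 29.6, a log2 difference of −0.99 (SE 0.46) for pInv against WT, or −0.56 without WT1. Its relative Bnip3l had 142 CPM in WT1, 70.8 in WT2 and 82.5 (pKO2) to 119 (KD) elsewhere. Higd1a, a respiratory chain factor, had 380.1 CPM in WT1, 604 in WT2 and 288 (pKO1) to 385 (pKO2) elsewhere.

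Members of protein folding and collagen modification were low in count. Ero1a, the oxidase that forms disulfide bonds, had 16.9 and 34.8 CPM in WT against 16.7 and 17.2 in pKO, with pInv at 10.6, Ctrl at 17.3 and KD at 7.85. WT2 was highest, and the log2 difference for pInv against WT was −1.20 (SE 0.57), or −0.63 without it. The collagen prolyl hydroxylase subunits moved apart in WT2, where P4ha2 was at 36.0 CPM against 13.4 to 19.1 in the other 6 and P4ha1 at 3.60 against 5.94 to 16.2. P4ha1 took 9.09% of their joint counts in WT2 (interval 3.41% to 18.7%, from 6 counts) and 25.9% to 54.7% elsewhere. That interval overlapped those of pKO1 (15.0% to 39.7%) and pInv (15.3% to 40.3%).

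Ddit4, an inhibitor of mTORC1, had 177 and 40.8 CPM in WT against 93.2 and 63.6 in pKO, with pInv at 101, Ctrl at 68.5 and KD at 141. Ndrg1, a stress-induced gene, had 52.1 CPM in WT1, 20.4 in WT2 and 22.6 (pKO2) to 33.0 (Ctrl) elsewhere. Each was highest in WT1 and lowest in WT2. Kdm3a, a histone demethylase, had 27.7 and 15.0 CPM in WT against 15.3 and 21.7 in pKO, with pInv at 14.9, Ctrl at 8.63 and KD at 6.93, a log2 difference of −1.24 (SE 0.58) for Ctrl against WT, or −0.73 without WT1. Mxi1, a MYC antagonist, showed little spread, from 7.64 (pInv) to 10.2 CPM (Ctrl).

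Vegfa, the vessel growth factor, had 6.37 and 8.40 CPM in WT against 5.73 and 6.15 in pKO, with pInv at 2.55, Ctrl at 3.05 and KD at 17.1. The values rest on 6 counts in pInv, 6 in Ctrl and 37 in KD. In pInv its log2 difference was −1.25 (SE 0.70) from WT and −0.99 (SE 0.71) from pKO. Adm, the peptide hormone adrenomedullin, reached at most 1.80 CPM and Ankrd37 at most 0.85 CPM, and the pH regulator Car9 had 0 counts in all 7 libraries, which allows up to 1.12 to 1.80 CPM. Adm, Ankrd37, Car9 and Pfkfb4 were the 4 members with a row that did not pass the filter on low counts.

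The WT libraries also differed from each other. Of 32 tested members, 6 were 2-fold or more lower in WT2 than in WT1 (Tpi1, Slc2a3, Bnip3l, P4ha1, Ddit4 and Ndrg1), where 17.7% of all genes were, and 4 were 2-fold or more higher (Pfkp, Aldoc, Slc16a3 and Ero1a), where 9.71% of all genes were. Both shares are near those of all genes. A fall of 1.5-fold or more from library 1 to library 2 in both WT and pKO was found for Tpi1 and Slc2a3, 2 of 32, where 11.2% of all genes showed it. In WT2 the primitive streak markers summed to 516 CPM against 1730 in WT1, the definitive endoderm markers to 111 against 456, and the neuroectoderm markers to 206 against 100.5, with Sox1 at 0 in every library. The part of these differences in the levels of the members was not tested.

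Named by smallest p, the enzymes nearest to a difference from WT were Hk1, Aldoc and Gapdh for pKO, Ldha, Pfkp and Hk1 for pInv, and Hk1, Aldoc and Pfkp for Ctrl. Hk1 differed from WT by −0.73 (SE 0.50) in pInv and −1.34 (SE 0.54) in Ctrl. Aldoc in Ctrl differed by −1.29 (SE 0.58), and Pfkp by −1.11 (SE 0.59) in pInv and −1.24 (SE 0.60) in Ctrl. Slc16a3 differed by −1.14 (SE 0.53) in Ctrl. Several of these values were over 1.5 times smaller without WT2, at −0.39 for Hk1 in pInv, −0.69 for Aldoc in Ctrl, −0.43 for Pfkp in pInv, −0.55 for Pfkp in Ctrl and −0.42 for Slc16a3 in Ctrl. All are on the log2 scale, and edgeR's adjusted p was 1 for all. At an unadjusted p under 0.05 there were 0 members for pInv against WT (1.48% of all genes), 3 for Ctrl against WT (Hk1, Egln3 and Egln1, with 1.38% of all genes) and 1 for pInv against pKO (Gapdh, with 1.49% of all genes). Between pInv and pKO the other named members were Aldoc at 0.63 (SE 0.53), Slc2a1 at −0.84 (SE 0.52), Ero1a at −0.64 (SE 0.56) and Bnip3 at −0.44 (SE 0.45). Without pKO2 these were 0.32 for Aldoc, −0.44 for Slc2a1 and −0.28 for Bnip3, and without pKO1 Aldoc was at 0.98.

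Knockdown and control, 1 library each and so without a replicate check, were compared by ratio. The enzymes lay close to 1 and the hypoxia-induced genes spread both ways, with median log2 ratios of −0.14 (9 of 14 lower) and −0.01 (9 of 18 lower), where 48.9% of all genes were lower. The highest ratio was that of Vegfa at 5.61, from 17.1 CPM (KD) over 3.05 CPM (Ctrl), with exact 95% counting bounds of 2.35 and 16.3. Ddit4 had a ratio of 2.06 (interval 1.68 to 2.54), Pdk1 0.422 (0.290 to 0.607) and Ero1a 0.455 (0.238 to 0.837). Of the enzymes, the largest ratios away from 1 were those of Pfkm at 0.620 (0.299 to 1.25), Tpi1 at 0.704 (0.633 to 0.783) and Gapdh at 0.778 (0.731 to 0.827).

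Among members at 5 CPM or more in either library, the interval lay below 1 for 4 of 14 enzymes (Aldoa, Tpi1, Gapdh and Pkm) and 4 of 18 hypoxia-induced genes (Pdk1, Bnip3, Ero1a and Higd1a), and above 1 for 5 of those 18 (Egln1, Slc2a1, Slc2a3, Vegfa and Ddit4). Of all 9360 genes at that level, 11% had an interval below 1 and 14.7% above 1. These intervals cover counting error alone and narrow as counts rise, so abundant members exclude 1 more readily. The upper bound was 0.9998 for Aldoa and 0.921 for Pkm. With library size alone in place of TMM scaling, the enzymes' median log2 ratio went from −0.14 to −0.02. The log2 ratio of Gapdh went from −0.36 to −0.24. At 20 CPM or more in either library, Ddit4 was the member 2-fold or more higher, where 4.03% of all such genes were, and Pdk1 the member 2-fold or more lower, where 1.26% were. Macrophage markers summed to 211 CPM in KD and 1.02 CPM in Ctrl, all 7 of 7 detected somewhere, and those of endothelium and blood progenitors to 156 and 46.2 CPM. The larger marker sets differed too. Of the stem cell and epiblast genes, 7 of 8 were lower in KD than in Ctrl, at a median log2 ratio of −0.45. Of the primitive streak genes, 6 of 8 were higher, at a median of 0.57. The part of these marker sets in the ratios was not tested.

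**Figure D4:**
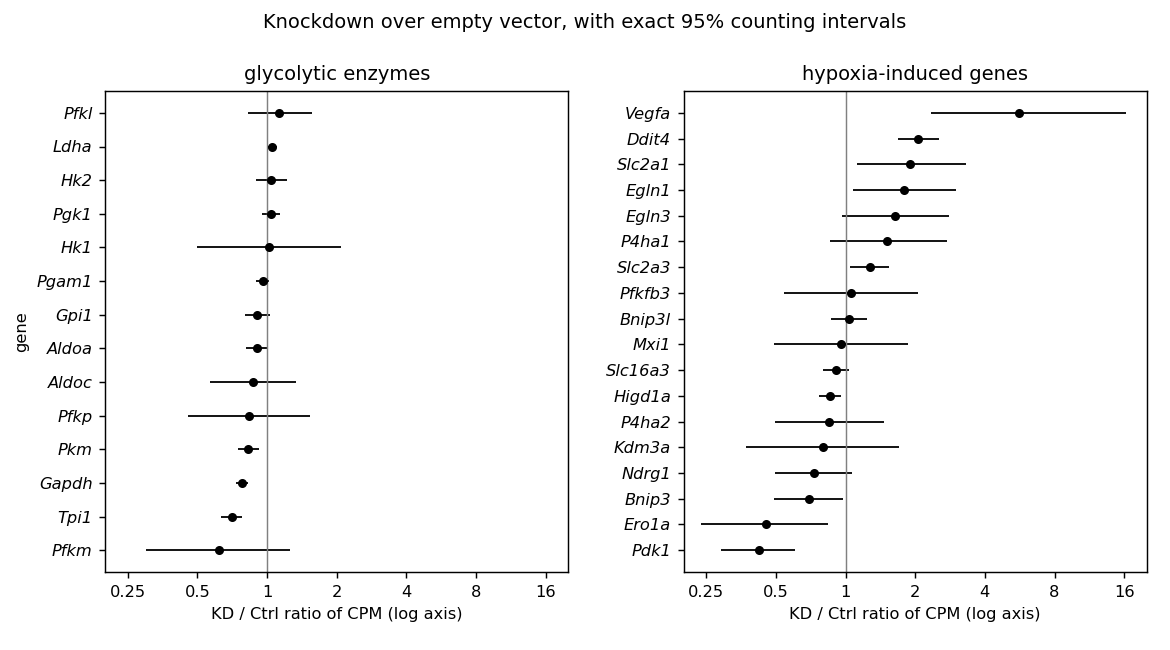
Points give the ratio of CPM in KD to CPM in Ctrl (horizontal log axis) with exact 95% counting intervals for each member at 5 CPM or more in either library (vertical axis), glycolytic enzymes on the left and hypoxia-induced genes on the right; a vertical line marks a ratio of 1. Enzyme ratios run from 0.620 to 1.13 and those of hypoxia-induced genes from 0.422 (Pdk1) to 5.61 (Vegfa).

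Other genes of the pathway, from lists beside the members, gave no call by edgeR in any of the 4 tested comparisons. Of 29 tested further HIF targets, 19 were lower in pKO than in WT with a median log2 difference of −0.22, and 2 had an unadjusted p under 0.05. Stc1, which encodes stanniocalcin, had 6.75 and 5.40 CPM in WT and 0.42 (pInv) to 1.64 (pKO2) in the others. Narf had 53.6 and 84.6 CPM in WT and 27.9 (Ctrl) to 50.1 (pInv) in the others, so that both WT libraries were above the rest for both genes. The HIF targets Bhlhe40 (WT 5.25 and 4.80 CPM, pKO 1.43 and 2.05) and Insig2 (WT 8.996 and 10.8 CPM, pKO 2.39 and 6.57) were next by p, with Bhlhe40 highest in pInv at 8.49 CPM and Insig2 highest in WT. For the same list the median was −0.05 in pInv (16 of 29 lower) and −0.41 in Ctrl (21 of 29 lower), both against WT.

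Isozymes and transporters outside the members had a median of 0.00 in pKO against WT (5 of 11 lower), and Ldhb, the lactate dehydrogenase of oxidative tissue, had 69.7 and 61.2 CPM in WT and 42.0 (pInv) to 70.1 (Ctrl) elsewhere. Tigar, which lowers glycolytic flux, was at 18.7 and 19.2 CPM in WT and 10.7 (Ctrl) to 16.6 (pInv) elsewhere. The genes of pyruvate entry and the TCA cycle had 11 of 22 lower in pKO than in WT and a median of −0.02. In Ctrl against WT the same genes had 16 of 22 lower and a median of −0.35, close to that of the enzymes, although the difference was not tested. Among them Sdhb stood at 76.8 and 56.4 CPM in WT against 60.7 and 46.0 in pKO. The pentose phosphate genes had 5 of 8 lower in pKO than in WT and a median of −0.14. Among them Pgls stood at 148 and 292 CPM in WT against 150.0 and 173 in pKO. Relative to WT, the pentose phosphate median was −0.29 in Ctrl (6 of 8 lower) and 0.09 in pInv (3 of 8 lower). That of the isozymes and transporters was −0.29 in Ctrl (7 of 11 lower) and −0.19 in pInv (6 of 11 lower).

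Serine synthesis and integrated stress response genes had 9 of 14 lower in pKO and a median of −0.34, with Trib3 at 10.5 and 10.2 CPM in WT against 5.73 and 6.98 in pKO. In pInv against WT the same list had a median of 0.19 (6 of 14 lower). MYC and growth genes had 4 of 11 lower in pKO and a median of 0.06. Relative to WT, their median was 0.50 in pInv (2 of 11 lower) and 0.26 in Ctrl (3 of 11 lower). Among them the polyamine enzyme Srm stood at 49.1 and 40.8 CPM in WT against 71.2 and 62.0 in pKO.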

How the data were processed

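The authors deposited, for each of the 7 libraries, RSEM estimates per gene (mouse build mm9), which the submitters' processing notes name; per the file headers they comprise TPM, FPKM and expected counts. The sources used here do not state version, trimming, strand setting or duplicate handling. The deposited expected counts were not normalized and were rounded to whole numbers here; the authors' TPM values, scaled to transcript length, served in 1 alternative, and the deposited FPKM values in none. Names came from RefSeq's GRCm38.p6 gene table by NCBI gene number.

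All 7 libraries entered 1 edgeR 4.0.16 quasi-likelihood fit (R 4.3.3) with a coefficient per title group, filterByExpr by group, TMM scaling and a prior count of 2; 10265 genes passed, a gene passing if high in 1 group. With 2 residual degrees of freedom, the single libraries were assumed to vary like WT and pKO. p-values were adjusted over all genes (threshold 0.05). The SE is the unshrunken difference over the root of the F statistic. KD over Ctrl used exact binomial 95% intervals. Library totals were 1898350 to 2564478. The steps were tested on simulated data with less spread between libraries than these data, so that check does not measure power here. Members, lists and tests were chosen with earlier results of these data known. By rule, log2 differences were printed for the 3 enzymes and 4 other members with smallest p in each comparison, ratios for those with the largest ratio at 5 CPM or more, up to 4 genes by smallest p of other lists, and promoters with most core matches; Hif1a, Arnt, Epas1, Egln2 and Ldhb were chosen outside it. Alternatives used DESeq2 1.42.0 and limma 3.58.1.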

Additional observations from a re-analysis of the deposited data

Results flagged for a closer look

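Counts of enolase 1 lay in rows that the gene-number rule does not reach. A row named by an Eno1 transcript, the row of its near-identical retrogene Eno1b and a further copy of the Eno1b transcript, 3 rows in all, averaged 481 CPM together over the 7 libraries, well above what a count of 0 allows. Their sum was 507 and 276 CPM in WT against 531 and 375 in pKO, with pInv at 424, Ctrl at 723 and KD at 529. WT2 was lowest and Ctrl highest. The row of the Eno1 transcript itself held at most 5.58 CPM (Ctrl), so the division between the rows is uncertain and the sum was used in no comparison.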

How the results depend on the processing

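The titles decide the directions. With groups from the genotype field, the pKO against WT medians reversed to 0.20 for enzymes and 0.47 for hypoxia-induced genes, as did Hk1 (0.93), Aldoc (1.004), Gapdh (0.10), Egln3 (1.001), Slc16a3 (0.84), Pfkfb3 (0.69) and Egln1 (0.41). For pInv against WT, Pfkp (0.24), Ero1a (0.25) and Vegfa (0.33) reversed, and for pInv against pKO, Gapdh (−0.72) and Aldoc (−0.91). The genotype field also moved the medians of hypoxia-induced genes to −0.042 (pInv against WT), −0.48 (pInv against pKO) and −0.018 (Ctrl against WT), those of enzymes to −0.58 (pInv against pKO) and −0.19 (Ctrl against WT), and gave 7 called genes for pInv against WT.

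No member was called under any alternative. Genes called rose from 0 without the filter to 9 (pKO against WT), 6 (pInv against WT), 8 (pInv against pKO) and 4 (Ctrl against WT). Leaving out each replicate gave 0 to 7 called genes for pKO against WT and 0 to 7 for pInv against pKO, the highest without pKO2. Median log2 differences with a replicate left out ran, for enzymes, from −0.58 to −0.092 (pKO against WT), −0.44 to −0.13 (pInv against WT) and −0.48 to −0.21 (Ctrl against WT), and for hypoxia-induced genes from −0.53 to −0.24, −0.66 to −0.43 and −0.73 to −0.53.

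Medians of hypoxia-induced genes were −0.40 (pKO against WT), −0.42 (pInv against WT) and −0.50 (Ctrl against WT) by limma on log2(TPM + 1), −0.41 (pKO) and −0.39 (pInv) without the filter, −0.49 (Ctrl) by limma-voom, and with library size alone −0.44 (pInv against WT) and 0.11 (KD against Ctrl). The numbers 1 and 2 are not stated to pair WT and pKO, whose same-numbered libraries deviated together with a correlation of 0.50 across 4682 genes in 2 pairs. With the number as a replicate block, 1 gene was called for pInv against WT and 2 for Ctrl against WT, and medians were −0.21 and −0.19 for enzymes there and −0.22 for hypoxia-induced genes in pInv against pKO. Members with both WT libraries outside the range of the other 5 numbered 7 with library size alone and 7 on TPM, and 5 to 23 with a replicate left out, where fewer libraries have to lie apart, 23 without WT1, 13 without WT2 and 9 without pKO2; the DESeq2 test, limma-voom and the prior count give no such value. Genes past 2-fold for KD numbered 694 at a minimum of 10 CPM against 269. The cause of these shifts was not tested. Members under about 2 CPM lie near the limit of depth.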
